A study of Mus musculus with 9 samples.

Results

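NF-kappaB is a family of transcription factors that carries signals from cytokine and microbial receptors to inflammatory genes. The 10 genes described here encode its subunits (Nfkb1, Nfkb2, Rel, Rela and Relb), proteins of the IkB family (Nfkbia, Nfkbie and Nfkbiz) and the feedback inhibitors A20 (Tnfaip3) and TNIP1 (Tnip1). They were taken by name as 10 of 34797 gene names on the array, with earlier results of these data known. Every array probe carrying such a name was kept whatever its values, which gave 14 probes out of 55681. In resting cells, IkB proteins hold subunit dimers in the cytoplasm. The IkB kinase marks them for destruction after a signal, the dimers enter the nucleus, and among the genes they turn on are Nfkbia, Tnfaip3 and Tnip1, whose products shut the signal off again. In neutrophils this circuit is known for driving cytokine production and for prolonging survival.

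Expression was measured in Gr-1bright neutrophils from carcinogen-treated FVB/N mice, the females of an inbred strain in which skin lesions progress from benign papilloma to invasive cutaneous squamous cell carcinoma. All groups received the mutagen DMBA on the skin at 6 and 13 weeks of age and the tumor promoter PMA repeatedly from week 1 to week 18 to 20, so that no group came from untreated skin. The 4 groups were neutrophils of skin next to papillomas (papilloma skin, 2 arrays), of skin next to carcinomas (tumor skin, 2 arrays), of papillomas (papilloma, 3 arrays) and of carcinomas (tumor, 2 arrays). Each array held RNA pooled from several mice, and a smaller share of expressing cells and less RNA per cell cannot be told apart. The p-values measure the spread between such pools as it stands in the deposited values. The methods name a removal of chip effects. If these values went through it, that spread can be too small and the p-values too low.

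The values are log2 levels from the table the authors deposited. They can be compared between arrays for 1 probe, not between probes. In the scanner files, 3 arrays stood apart. On papilloma skin 1, tumor skin 1 and tumor 1, 90.7% to 95.0% of probes were well above background and the spike-in controls spanned 5.56 to 7.66 log2 units, against 43.5% to 63.5% and 12.2 to 13.8 log2 units on the other 6 arrays. The table columns labelled papilloma skin 1 and tumor 1 were both closest in rank order to the scanner file of tumor 2 (Spearman's rho 0.924 and 0.947, against 0.588 and 0.827 with their own files), and the columns of papilloma 2 and papilloma 3 were each closest to the other's file. Calls of the 10 genes and of the gene lists are given with and without the columns papilloma skin 1 and tumor 1, while levels per array are given for all 9. Of the transcripts that mark neutrophils, some varied little between arrays and others more. S100a8 lay between 17.9 and 18.2, S100a9 between 18.5 and 18.6 and Csf3r between 16.7 and 16.9 over the 9 arrays. Cxcr2 ranged from 13.7 to 15.1 and Ly6g from 9.30 to 12.7. Of 16 neutrophil marker probes, 6 were lower in papilloma and 8 in tumor (adjusted p at most 0.05, limma against adjacent skin), and 0 were higher. Of all probes, 2.19% and 3.96% were lower. All 14 probes of the 10 genes were well above background on all 9 arrays.

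Neutrophils of lesions were set against those of the adjacent skin at each stage. In tumor versus tumor skin, 2 of 14 probes were called at an adjusted p of at most 0.05, 1 of Tnip1 and 1 of Nfkb1, both higher in tumor. Over all 55681 probes 9.74% were called in this contrast, 5.78% higher and 3.96% lower in the lesion. In papilloma versus papilloma skin limma called 0 of 14 (3 at an unadjusted p under 0.05), against 6.35% of all probes. A differentially expressed gene (DEG) by the thresholds of the study also had to differ by at least 1 log2 unit at a mean level of at least 6. By that definition 1 of 14 probes, that of Tnip1, was a DEG in tumor versus tumor skin (4.21% of all probes) and 0 of 14 in papilloma versus papilloma skin (3.18% of all probes). The largest absolute difference over the 14 probes was 0.57 log2 units at the papilloma stage, and 12 of 14 confidence intervals lay wholly within 1 log2 unit of 0. At the tumor stage, 7 of 14 did. Among the others were the 2 called probes, with intervals from 0.57 to 1.51 (Tnip1) and 0.41 to 1.23 (Nfkb1). For the uncalled rest, differences of that size were not resolved with 2 arrays per group.

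The feedback of this circuit is known to act through kappaB sites in the inhibitors' own promoters. In the 250 bases before each RefSeq gene start (build GRCm38.p6), a kappaB-type motif was searched on both strands, defined as GGG, then 5 bases of any kind, then CC. The promoter table matched 7 of the 10 genes with 10 starts, and all 10 windows held the motif, as did 45.8% of 32851 windows of the same length over all genes and 21 of 42 windows of the NF-kappaB target genes listed further on. Nfkb1, Relb and Nfkbiz are named only. The windows of the 3 feedback genes Tnip1, Tnfaip3 and Nfkbia are printed below, 5′ to 3′ on the gene's strand, as the inhibitors named as targets in the opening. Other windows are not printed, among them that of the inhibitor Nfkbie with 3 matches. Capitals mark every stretch covered by a match, and overlapping matches run together. The Tnip1 window lies at chr11:54962941-54963190, minus strand, with 3 matches by start position. The printed window of Tnfaip3 lies at chr10:19015411-19015660, minus strand, with 4 matches. Another Tnfaip3 window, at chr10:19011964-19012213, held 2 matches and is not printed. The window of Nfkbia lies at chr12:55492648-55492897, minus strand, with 2 matches.
Tnip1: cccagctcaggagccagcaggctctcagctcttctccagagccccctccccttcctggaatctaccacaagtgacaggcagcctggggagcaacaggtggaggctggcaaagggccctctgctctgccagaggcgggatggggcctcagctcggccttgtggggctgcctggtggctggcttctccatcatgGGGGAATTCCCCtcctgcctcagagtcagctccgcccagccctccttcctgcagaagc
Tnfaip3: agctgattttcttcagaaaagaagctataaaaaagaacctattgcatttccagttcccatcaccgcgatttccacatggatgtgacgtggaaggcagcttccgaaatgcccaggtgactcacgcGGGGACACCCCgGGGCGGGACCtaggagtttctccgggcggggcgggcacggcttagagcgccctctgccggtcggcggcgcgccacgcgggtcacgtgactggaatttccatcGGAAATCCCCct
Nfkbia: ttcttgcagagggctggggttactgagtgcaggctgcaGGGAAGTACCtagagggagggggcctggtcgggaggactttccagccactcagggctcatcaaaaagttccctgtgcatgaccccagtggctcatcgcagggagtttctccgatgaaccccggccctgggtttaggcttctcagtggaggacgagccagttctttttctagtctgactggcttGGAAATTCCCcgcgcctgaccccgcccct
In Tnip1 the capitals form a single palindromic stretch, while those of Tnfaip3 and Nfkbia lie apart from each other. A match describes the letters only and is no measured binding site.

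The subunits come first. Nfkb1 encodes p105, the precursor of the p50 subunit, and was read by probes A_55_P1968743 (mm9 chr3:135254550-135254609) and A_55_P1968738 (chr3:135247621-135247680), both designed on the same transcript. The first probe, the brighter of the pair, read 9.18 and 9.16 in papilloma skin, 9.02, 9.56 and 9.72 in papilloma, 9.21 and 8.32 in tumor skin, and 9.44 and 8.95 in tumor. Lesion and skin overlapped at both stages, and the difference in tumor versus tumor skin was 0.43 ± 0.33 (log2 fold change ± SE, adjusted p = 0.45). The second probe read 8.27 and 8.53 in papilloma skin, 8.86, 8.96 and 8.79 in papilloma, 7.60 and 7.82 in tumor skin, and 8.71 and 8.35 in tumor. Lesion arrays lay above skin arrays without overlap at both stages. The rise of the second probe in tumor versus tumor skin was 0.82 ± 0.18 (1.77-fold, adjusted p = 0.029), and the difference at the papilloma stage was 0.47 ± 0.16 (adjusted p = 0.15). In the value table tumor skin was also the lowest group for this probe, 0.69 ± 0.18 below papilloma skin (adjusted p = 0.097). The Nfkb1 probes followed each other only in part (r = 0.60 over 9 arrays). Without the columns papilloma skin 1 and tumor 1, the second probe differed by 0.64 (adjusted p = 0.11), and in the quantile-normalized scanner files with slide in the model by -0.18 (adjusted p = 1.00), so that its call rests on the value table. The call also needed the full set of arrays, since it was lost on leaving out tumor skin 1, tumor skin 2, papilloma 1, papilloma 3, tumor 1 or tumor 2 (0.64 to 1.00, adjusted p at most 0.13).

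Rela, the p65 subunit that carries the main transactivation domain, had the smallest difference of the 14 probes at the papilloma stage. Its probe (A_55_P1974288, chr19:5648070-5648129) read 14.2 and 14.5 in papilloma skin, 14.2, 14.6 and 14.3 in papilloma, 14.3 and 14.0 in tumor skin, and 14.4 and 14.1 in tumor. All 4 groups overlapped. The difference between lesion and skin was 0.0030 ± 0.18 at the papilloma stage, with a 95% confidence interval from -0.42 to 0.42, and 0.090 ± 0.20 at the tumor stage, from -0.37 to 0.55.

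Nfkb2 encodes p100, the precursor of p52 in the non-canonical branch, and was read by A_51_P454217 (chr19:46386146-46386285). Its means were 11.9 ± 0.50 in papilloma skin, 11.8 ± 0.087 in papilloma, 11.7 ± 0.057 in tumor skin and 11.3 ± 0.19 in tumor (SD; n = 2, 3, 2 and 2). Both tumor arrays lay below all arrays of the other groups. The differences of -0.31 ± 0.23 from tumor skin and -0.42 ± 0.21 from papilloma did not pass the test (adjusted p = 0.42 and 0.40).

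Rel encodes c-Rel, a subunit with a transactivation domain, and its probe (A_51_P187461, chr11:23641729-23641743) spanned less than 1 log2 unit over all arrays. It read 6.76 and 6.69 in papilloma skin, 6.78, 6.88 and 6.81 in papilloma, 6.89 and 6.86 in tumor skin, and 6.57 and 6.56 in tumor. Papilloma lay above papilloma skin and tumor below tumor skin, without overlap in either case. The differences were 0.098 ± 0.12 (adjusted p = 0.70) and -0.31 ± 0.13 (adjusted p = 0.16). The difference between these stages of -0.41 ± 0.17 did not pass the test either (adjusted p = 0.33).

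Relb, the partner of p52, had 3 probes that disagreed. A_51_P389751 (chr7:20191722-20191781) and A_55_P2168736 (chr7:20191773-20191832) start 51 bases apart and followed each other (r = 0.95). The third, A_55_P2168741 (chr7:20203058-20203117), was designed on a different transcript, lies 11336 bases from the first, and ran against it (r = -0.52). The brightest, A_51_P389751, averaged 12.2 ± 0.36 in papilloma skin, 12.0 ± 0.067 in papilloma, 11.6 ± 0.039 in tumor skin and 11.7 ± 0.26 in tumor. It was 0.67 ± 0.20 lower in tumor skin than in papilloma skin and A_55_P2168736 was 0.73 ± 0.20 lower, while the third probe was 0.63 ± 0.21 higher. None of the Relb differences passed the test (adjusted p of 0.12, 0.11 and 0.14 in this contrast). Lesion against skin, A_51_P389751 differed by -0.20 ± 0.18 at the papilloma stage and 0.11 ± 0.20 at the tumor stage.

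**Figure D1:**
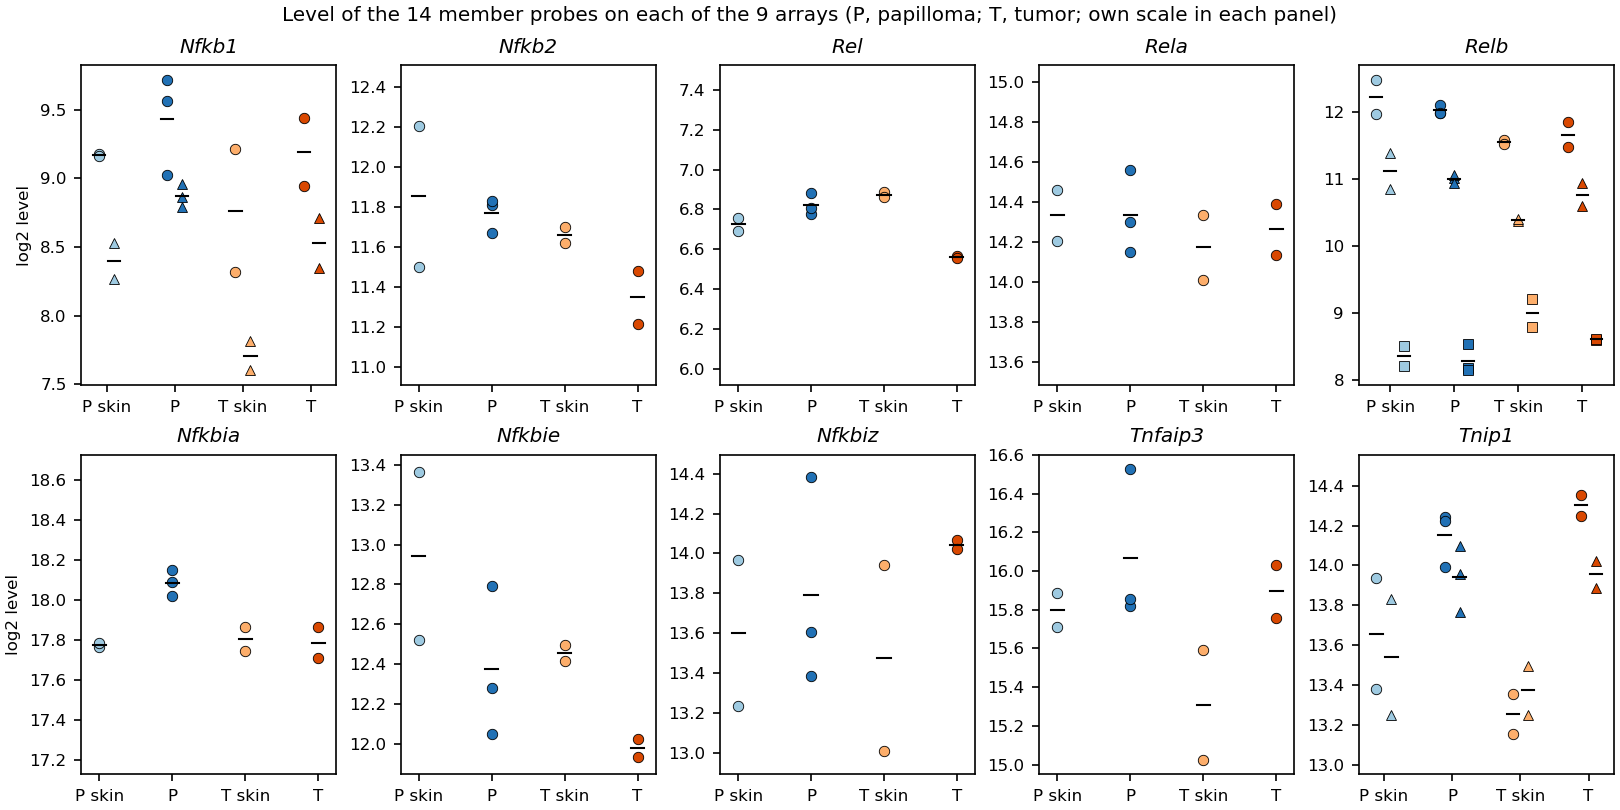
Log2 level (y axis, own scale in each panel) of the 10 genes on the 9 arrays by group (x axis; P, papilloma; T, tumor). Each point is 1 array, bars are group means, and different symbols within a panel are different probes of the gene, brightest first as circles. Tumor lies wholly above tumor skin for 6 of 14 probes, among them Tnip1 and the second Nfkb1 probe (triangles), and wholly below it for 4. Over the whole array 52.1% of probes separate these groups. Rela overlaps in all groups, and the third Relb probe (squares) runs against the other Relb probes.

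Among the IkB proteins, Nfkbia encodes IkBalpha, the inhibitor that is degraded and resynthesized in each round of signaling. Its probe (A_51_P295192, chr12:56590945-56591440) read 17.76 and 17.78 in papilloma skin, 18.02, 18.15 and 18.09 in papilloma, 17.86 and 17.74 in tumor skin, and 17.71 and 17.86 in tumor. All papilloma arrays lay above all others. The difference was 0.31 ± 0.12 against papilloma skin (1.24-fold, adjusted p = 0.21) and -0.30 ± 0.12 for tumor versus papilloma (adjusted p = 0.33), with -0.018 ± 0.14 between tumor and tumor skin. No spot was saturated on any array.

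Nfkbie encodes IkBepsilon, a further cytoplasmic inhibitor, and was read by A_51_P235123 (chr17:45700000-45700059). It read 12.5 and 13.4 in papilloma skin, 12.3, 12.8 and 12.1 in papilloma, 12.5 and 12.4 in tumor skin, and 12.03 and 11.94 in tumor. It was the 1 inhibitor with lower means in the lesion at both stages, at -0.57 ± 0.28 (adjusted p = 0.30) and -0.48 ± 0.31 (adjusted p = 0.36). Nfkbiz encodes IkBzeta, a nuclear cofactor needed for a subset of secondary targets, and was read by A_55_P2039086 (chr16:55817859-55817918). It averaged 13.6 ± 0.51 in papilloma skin, 13.8 ± 0.52 in papilloma, 13.5 ± 0.66 in tumor skin and 14.0 ± 0.032 in tumor. Single arrays of a group lay up to 0.99 apart, more than the group means did, and the tumor difference of 0.57 ± 0.41 (adjusted p = 0.42) had an interval from -0.37 to 1.50.

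Of the ubiquitin-dependent feedback inhibitors, Tnip1 showed the largest difference of all 14 probes. It encodes an adaptor that binds polyubiquitin and A20 and restrains signaling downstream of TNF and Toll-like receptors. Its probes A_55_P2118674 (chr11:54724291-54724350) and A_55_P2118675 (chr11:54724351-54724410) abut each other on the same transcript and moved together (r = 0.96). A_55_P2118674 read 13.4 and 13.9 in papilloma skin, 14.2, 14.2 and 14.0 in papilloma, 13.2 and 13.4 in tumor skin, and 14.4 and 14.2 in tumor. Every lesion array lay above every skin array. The rise in tumor versus tumor skin was 1.04 ± 0.20 (2.06-fold, 95% confidence interval 0.57 to 1.51, adjusted p = 0.020). At the papilloma stage the difference was 0.50 ± 0.19 (1.41-fold, adjusted p = 0.18), and the stages were not shown to differ (0.55 ± 0.28, adjusted p = 0.40). A_55_P2118675 read 13.3 and 13.8 in papilloma skin, 14.1, 14.0 and 13.8 in papilloma, 13.3 and 13.5 in tumor skin, and 14.0 and 13.9 in tumor. It showed the same order of groups with a smaller difference in tumor versus tumor skin, 0.58 ± 0.22, which did not pass (adjusted p = 0.13).

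The tumor difference of Tnip1 A_55_P2118674 kept its direction in every fit of either data source but not its call. That of A_55_P2118675 was -0.15 in the scanner files scaled to the 75th percentile. Within slide 1, the only slide that held both tumor and tumor skin, tumor was 1.20 above tumor skin for A_55_P2118674, and papilloma exceeded papilloma skin by 0.86 on slide 1 and 0.29 on slide 2. Slide 1 held papilloma skin 1, tumor skin 1 and tumor 1, the 3 arrays with the narrow spike-in range. Without the columns papilloma skin 1 and tumor 1 the tumor difference was 0.99 (adjusted p = 0.056). Leaving out tumor skin 1, tumor 1 or tumor 2 ended the call as well (0.94, 0.99 and 1.10, with adjusted p = 0.082, 0.088 and 0.098). In the scanner files it was 0.51 ± 0.76 with slide in the model (adjusted p = 1.00), and 0.77 between the single tumor and tumor skin arrays that had the full spike-in range.

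Tnfaip3 encodes A20, which edits ubiquitin chains on signaling intermediates and is itself a classical NF-kappaB target. Its probe (A_55_P2053838, chr10:18720776-18720835) read 15.7 and 15.9 in papilloma skin, 15.8, 16.5 and 15.9 in papilloma, 15.6 and 15.0 in tumor skin, and 15.8 and 16.0 in tumor. Tumor and tumor skin did not overlap, papilloma and papilloma skin did. The differences of 0.59 ± 0.28 in tumor versus tumor skin (1.50-fold, adjusted p = 0.23) and 0.27 ± 0.26 in papilloma versus papilloma skin (adjusted p = 0.62) did not pass the test.

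**Figure D2:**
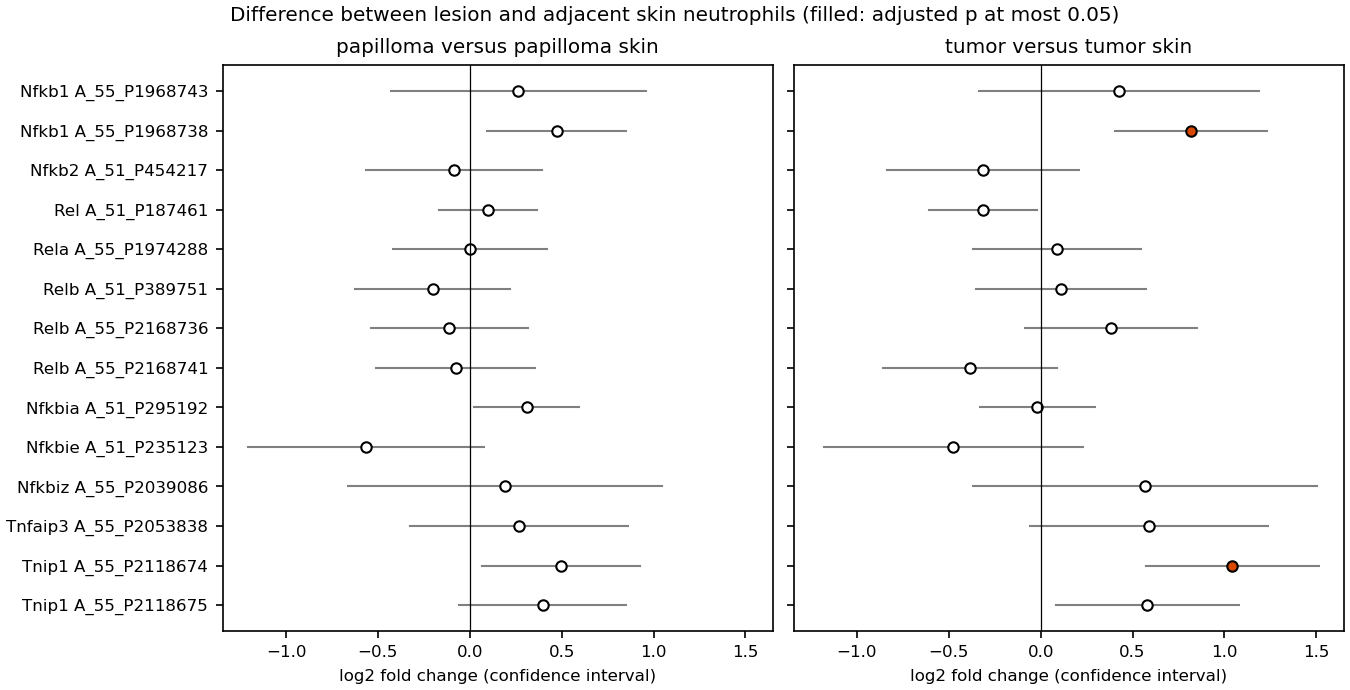
Log2 fold change (x axis) of each of the 14 probes (y axis) between lesion and skin neutrophils at the papilloma stage (left) and the tumor stage (right). Lines are 95% confidence intervals from limma and filled points passed an adjusted p of at most 0.05. Only Tnip1 A_55_P2118674 (1.04) and Nfkb1 A_55_P1968738 (0.82) passed, both at the tumor stage.

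The remaining contrasts set the stages against each other. limma called 0 of 14 probes in tumor versus papilloma (1 at an unadjusted p under 0.05, 0.645% of all probes called), 0 of 14 in tumor skin versus papilloma skin (4 unadjusted, 0.623% called), and 0 of 14 for the difference between the lesion effects of both stages (1 unadjusted, 0.0323% called). The median difference over the 14 probes was -0.24 between tumor and papilloma and -0.30 between the tumor skin and papilloma skin groups, beside medians of -0.015 and -0.0084 over all probes. In tumor skin 11 of 14 probes had a lower mean than in papilloma skin in the value table, but the 6 fits of the scanner files kept the sign of only 2 to 5 of 14 probes in this contrast, and the second Nfkb1 probe, 0.69 lower in the table, was 1.86 higher there with the slide effect removed. These contrasts share arrays with the lesion contrasts and are not independent of them. Groups did not overlap for 4 of 14 probes in papilloma versus papilloma skin (37.6% of all probes), 10 in tumor versus tumor skin (52.1%), 8 between papilloma and tumor (36.2%) and 8 between the skin groups (48.9%), and with so few arrays such separation was common on the whole array.

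Over the 9 arrays the 10 genes, each by its brightest probe, were loosely tied to each other. Of 45 pairs, 37 had a positive Pearson's r, with a median of 0.33, the highest for Nfkb2 and Nfkbie (0.83) and the lowest for Rel and Tnip1 (-0.56). As a description of likeness, the probe of another named gene closest to each was sought among probes with a mean level of at least 6. The closest to Tnfaip3 was Icam1, the adhesion molecule and NF-kappaB target (r = 0.97), and the closest to Tnip1 was B230308N11Rik (r = 0.99). The others were Csnk1e for Nfkb1 (0.97), Mfap2 for Nfkb2 (0.98), Rab3a for Rel (0.94), Tlcd2 for Rela (0.97), Txnrd1 for Relb (0.96), Myh11 for Nfkbia (0.97), Cited1 for Nfkbie (0.97) and Olfr372 for Nfkbiz (0.96). These coefficients come from 9 shared arrays and were the highest among 18904 to 18906 probes compared. For Tnip1, 380 probes exceeded 0.9, and for the other 9 genes 4 to 47 probes did.

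Upstream of the 10 genes, the kinases and adaptors that lead to the IkB kinase were measured as well. Of 43 probes for 31 genes, 5 rose and 1 fell in papilloma versus papilloma skin, and 11 rose and 3 fell in tumor versus tumor skin, with median differences of 0.011 and 0.19 against -0.0063 and -0.019 over all probes. Of all probes, 4.15% rose and 2.19% fell in papilloma and 5.78% rose and 3.96% fell in tumor. Without the columns papilloma skin 1 and tumor 1 the list counted 0 higher and 1 lower in papilloma and 2 higher and 2 lower in tumor. Leaving out any 1 papilloma or papilloma skin array left 1 or 2 higher in papilloma, and leaving out tumor 1, tumor 2, tumor skin 1 or tumor skin 2 left 3, 1, 4 and 5 higher in tumor. The 3 that fell in tumor became 0 without tumor 2 or tumor skin 1 and 1 without any other tumor, tumor skin or papilloma array, and the 1 that fell in papilloma was lost without papilloma 1, papilloma 3 or papilloma skin 2. In each of these fits fewer probes of the whole array were called in the same contrast as well. Ikbke, a non-canonical IkB kinase, rose by 1.06 ± 0.22 at the papilloma stage (adjusted p = 0.029) and by 2.25 ± 0.24 at the tumor stage (4.76-fold, adjusted p = 0.0025). It read 8.07 and 7.56 in papilloma skin, 8.84, 8.54 and 9.21 in papilloma, 6.97 and 7.01 in tumor skin, and 9.24 and 9.24 in tumor, with every lesion array above every skin array. Its relative Tbk1 rose by 1.51 ± 0.24 in tumor. For Irak2, a kinase of the IL-1 and Toll-like receptor complex, 1 of 2 probes rose, by 1.01 ± 0.20 and 1.07 ± 0.22 at the papilloma and tumor stages, and for Traf6, the ubiquitin ligase below it, 2 of 3 probes rose in papilloma, by 0.96 ± 0.16 for the probe with the larger change. Card9, the adaptor of fungal receptors, fell by 1.37 ± 0.24 in papilloma and by 1.46 ± 0.27 in tumor. In tumor, the adaptor Myd88 fell by 0.98 ± 0.25 and Traf5 by 0.53 ± 0.13. Of the genes named here, Ikbke, Card9 and Myd88 in tumor and Card9 in papilloma were still called without both columns.

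Most probes of other inhibitors did not pass the test, with exceptions in both directions. Of all probes, 4.15% rose and 2.19% fell in papilloma, and 5.78% rose and 3.96% fell in tumor. Of 7 probes for the other IkB proteins, Nfkbid (IkBNS, a nuclear IkB) rose in papilloma by 0.75 ± 0.16 (adjusted p = 0.033) and none passed in tumor. Nfkbid was not called without both columns (0.51, adjusted p = 0.16), nor on leaving out papilloma 1, papilloma 2, papilloma 3, papilloma skin 1, tumor 1 or tumor 2. Of 24 probes for other feedback regulators, 1 rose (4.17%, near the share of all probes) and 2 fell in papilloma, and 4 rose (16.7%) and 1 fell in tumor. Without both columns these counts were 0 and 2 in papilloma and 1 and 2 in tumor, and leaving out any 1 tumor or tumor skin array left 1 higher in tumor and any 1 papilloma array left 2. Of all 55681 probes, the fit without both columns called 758 higher and 541 lower in papilloma, and 1427 higher and 913 lower in tumor. In papilloma 2 were higher without papilloma skin 2, and 1 was lower without papilloma 1, papilloma 3 or papilloma skin 2. In tumor 0 were lower without tumor 2, and 2 without papilloma skin 1 or papilloma skin 2. Both Cyld probes, for a deubiquitinase that removes activating chains, fell in papilloma, and A_52_P218976 fell by 1.55 ± 0.23 there and by 1.50 ± 0.25 in tumor (adjusted p = 0.0072 and 0.011). The values of A_52_P218976 were 9.93 and 10.5 in papilloma skin, 8.59, 8.80 and 8.62 in papilloma, 10.6 and 10.4 in tumor skin, and 9.30 and 8.67 in tumor, with every lesion array below every skin array. The other Cyld probe missed the threshold in tumor (adjusted p = 0.063). The pseudokinase gene Trib3 rose by 0.85 ± 0.11 in papilloma and by 1.87 ± 0.13 in tumor, where Tank (0.74 ± 0.15) and the ubiquitin ligase gene Itch (0.57 ± 0.13) rose too. Of 25 probes for receptors that feed the pathway, 1 rose in papilloma (4.0%) and 2 in tumor (8.0%), beside 4.15% and 5.78% of all probes. The IL-1 receptor Il1r1 rose by 1.69 ± 0.25 in papilloma and by 1.32 ± 0.28 in tumor, and 1 of 2 Tlr4 probes rose by 0.93 ± 0.23 in tumor. Il1r1 kept its call at both stages without both columns and Tlr4 did not (adjusted p = 0.15). On leaving out 1 array, 0 receptor probes were called in papilloma without papilloma skin 2, and in tumor 0 without papilloma 3, tumor 2 or tumor skin 1 and 1 without papilloma 1, papilloma 2, tumor 1 or tumor skin 2.

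Known NF-kappaB target genes were counted in the same way. This list, like those above, was chosen with earlier results of these data known. Of 57 probes for 44 genes, 23 rose and 2 fell in papilloma versus papilloma skin (4.15% and 2.19% of all probes), and 26 rose and 1 fell in tumor versus tumor skin (5.78% and 3.96% of all probes). The median difference was 0.60 and 0.97, against 0.14 and 0.25 for the 14 probes of the circuit, and the lists were not tested against each other. Of the 55 probes with a mean level of at least 6, tested among such probes only, 25 rose in papilloma and 27 in tumor (7.50% and 11.0% of all such probes). The genes with a rising probe numbered 18 in papilloma and 20 in tumor, of which 14 were shared. Il1a, which encodes the alarmin IL-1alpha, rose 9.22-fold in papilloma (adjusted p = 0.00086) and 10.1-fold in tumor (adjusted p = 0.0016). It read 8.47 and 9.07 in papilloma skin, 11.7, 12.4 and 11.8 in papilloma, 8.58 and 7.97 in tumor skin, and 11.6 and 11.6 in tumor. Nos2, the inducible nitric oxide synthase, rose by 2.89 ± 0.20 in papilloma and the neutrophil chemokine gene Cxcl3 by 2.69 ± 0.21. In tumor the chemokine gene Cxcl5, well above background on 7 of 9 arrays, rose by 3.55 ± 0.29 and the survival gene Ier3 by 3.12 ± 0.35. The 2 that fell in papilloma were Cd83 (2.06 ± 0.45 lower) and Cd86 (0.73 ± 0.16 lower), markers of antigen presentation, and the 1 that fell in tumor was Lcn2, a neutrophil granule protein, by 1.46 ± 0.26. Many of these targets answer to other factors as well.

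The rise of the targets was seen with fewer arrays and in the scanner files by direction, while 5 of 6 scanner fits called 0 probes of the whole array in papilloma. Without the columns papilloma skin 1 and tumor 1, 13 target probes were called higher in papilloma and 21 in tumor. Leaving out papilloma skin 1 left 15 in papilloma, and leaving out tumor 2 left 17 in tumor. Both that fell in papilloma lost the call without both columns (Cd83 -1.60 and Cd86 -0.81, adjusted p = 0.25 and 0.061), and Lcn2 in tumor kept it. Leaving out any 1 papilloma, papilloma skin or tumor array left 0 or 1 lower in papilloma, and Lcn2 lost its call without tumor 1, tumor 2 or tumor skin 2. Within slides, 44 and 47 of 57 probes were higher in papilloma than in papilloma skin on slides 1 and 2, and 48 of 57 were higher in tumor on slide 1. Slide 1 held papilloma skin 1, tumor skin 1 and tumor 1, the 3 arrays with the narrow spike-in range. On the 6 scanner arrays with the full spike-in range, 42 of 57 were higher in papilloma and 48 of 57 in tumor, with median differences of 0.53 and 1.41. These arrays hold a single array each of papilloma skin, tumor skin and tumor. The shares of all probes higher within slides and on these arrays were not counted. Il1a differed there by 2.63 and 4.72.

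Markers of other cells moved with the same contrasts. Of all probes, 4.15% rose and 2.19% fell in papilloma, and 5.78% rose and 3.96% fell in tumor. Of 20 keratinocyte probes 4 rose in papilloma and 5 in tumor (3 and 6 without the columns papilloma skin 1 and tumor 1), and the summed level of the list was 13.4 to 14.4 on skin arrays and 14.4 to 16.4 on lesion arrays, without overlap. Of 16 neutrophil probes 6 fell in papilloma and 8 in tumor, as many as without both columns, with summed levels of 20.1 to 20.4 in skin and 19.8 to 20.0 in lesions. The B cell and plasma cell list summed to 13.4 to 15.3 in skin and 8.97 to 9.82 in lesions, a sum weighted towards its brightest probes. Of its 8 probes, 1 fell in papilloma and 2 in tumor (0 and 1 without both columns), with median differences of -0.27 and -0.83. Only 3 of the 8 were well above background on all 9 arrays. Endothelial markers rose for 5 of 9 probes in papilloma and 1 of 9 in tumor (2 and 1 without both columns). Of these 9 probes, 4 were well above background on all 9 arrays. Their summed level was 12.8 to 13.1 in papilloma skin and 12.9 to 13.6 in papilloma. It was lower in tumor (12.5 to 12.7) than in tumor skin (13.2 to 14.0). The part of these cells in the differences of Tnip1, Nfkb1 and the target genes was not tested. Of the target list, 2 genes, Lcn2 and Mmp9, are also on the neutrophil list, and none is on the keratinocyte list. That the lists share no gene does not tell which cells the target transcripts came from.

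**Figure D3:**
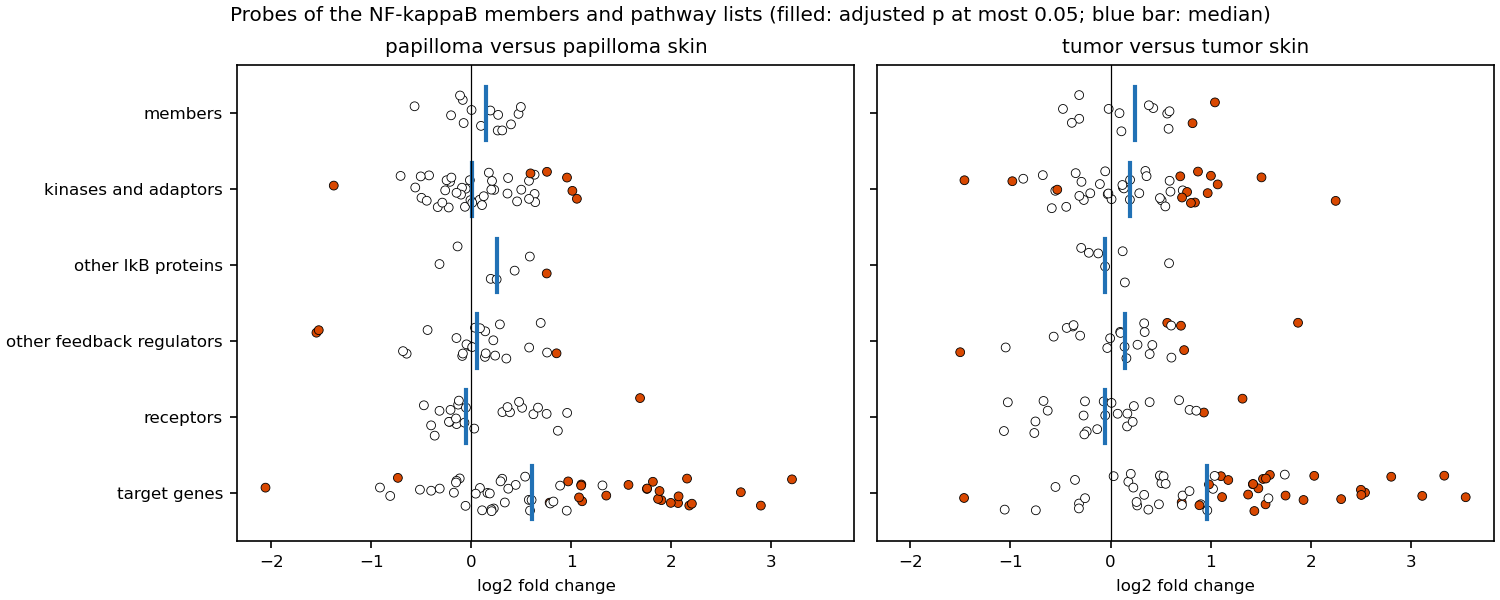
Log2 fold change (x axis) of every probe of the 10 genes (members) and of the lists of upstream, inhibitory, receptor and target genes (y axis, points spread vertically for clarity) at the papilloma stage (left) and tumor stage (right). Filled points passed an adjusted p of at most 0.05 and blue bars are medians. The 14 member probes lie between -0.57 and 1.04, while target gene probes reach 3.21 in papilloma and 3.55 in tumor.

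**Figure D4:**
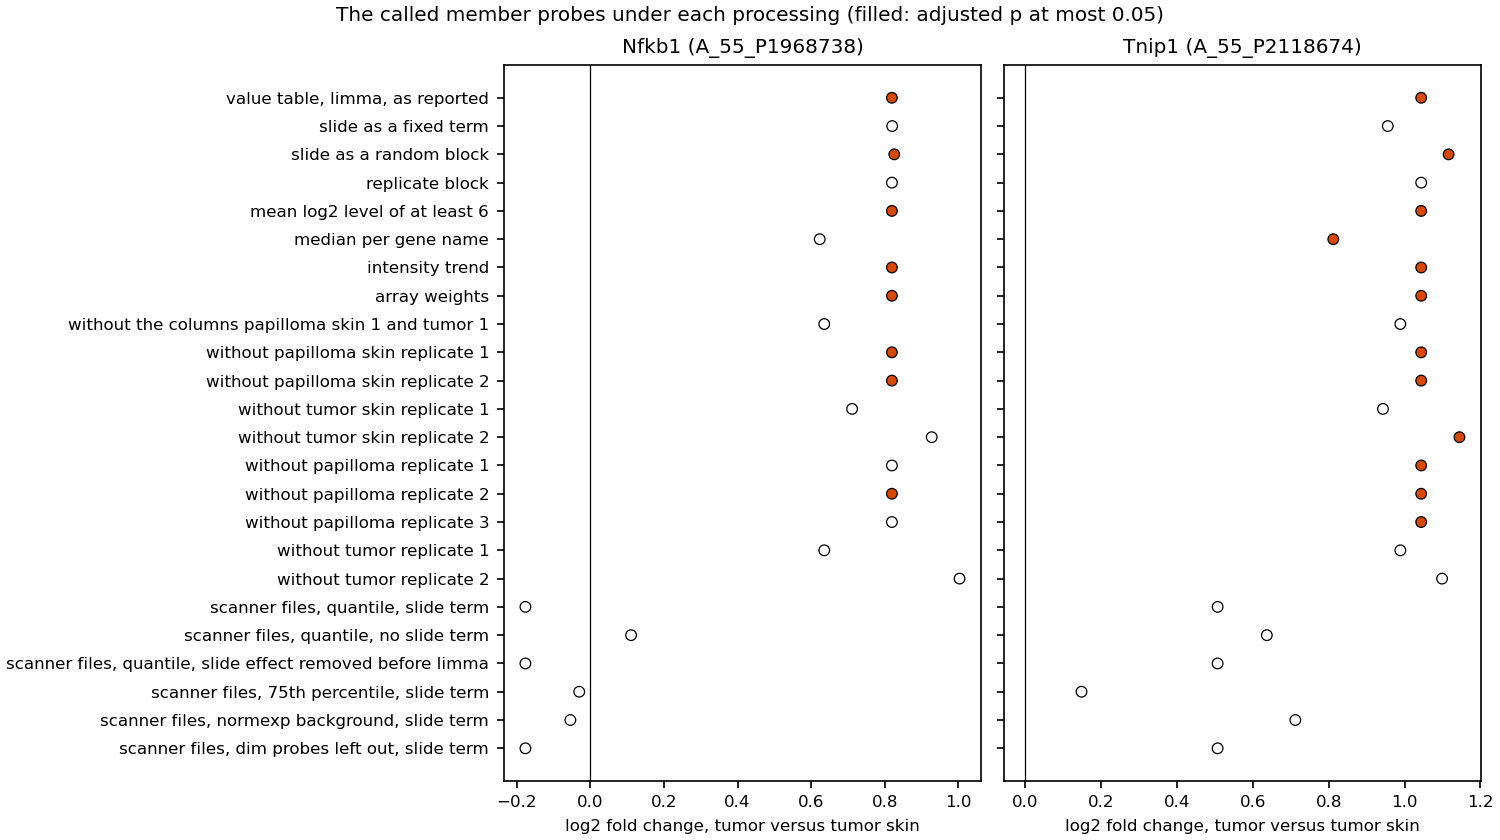
Log2 fold change in tumor versus tumor skin (x axis) of the called Nfkb1 and Tnip1 probes under each processing (y axis); filled points passed an adjusted p of at most 0.05. In the value table both differences stay positive and lose the call without a tumor array, and in the scanner files Tnip1 stays positive (0.15 to 0.71) while Nfkb1 lies between -0.18 and 0.11.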

How the data were processed

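Neutrophils had been sorted by flow cytometry to high purity per the labels, and Cy3-labeled RNA hybridized to 1-color Agilent mouse arrays. Per the file headers, the deposited scanner files hold background-subtracted fluorescence intensity per spot from Feature Extraction, not scaled between arrays. A second file from the authors gives log2 values per probe and array, with column medians of 6.08 to 6.12. The methods name quantile normalization (limma) and ComBat for chip effects, but not which of them this table went through. In the quantile-normalized scanner files, papilloma versus papilloma skin had 0 called probes with slide as a term. It had 1917 with the slide effect removed before limma.

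Probes were taken by gene name on the array, with coordinates in mm9. All 55681 probes of the table were tested with limma 3.58.1 in R 4.3.3 (4 groups, 9 arrays, 5 residual degrees of freedom), with Benjamini-Hochberg adjustment over all probes and calls at an adjusted p of at most 0.05. The number of arrays limits the precision. The fit was tested on simulated data. Scanner signals of 55155 probes were log2 transformed, quantile normalized and fitted with slide as a term, with scaling to the 75th percentile and normexp (offset 50) among the alternatives. Summed marker levels are log2 of the summed linear values. Figures used matplotlib 3.10.9, tables pandas 2.3.3.

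Named were all 10 genes with each probe, of each pathway list at most 3 called genes per direction and lesion contrast with the largest change, and the closest gene by Pearson's r. Of the fixed names, Otulin was searched as Fam105b, and Bcl2a1a and Bcl2a1b matched no probe. The genes and lists were chosen with earlier results of these data known. Whether the arrays' replicate numbers pair the samples could not be told, and the main fit used no pairing. Correlations of same-numbered deviations from the group means ran from -0.96 to 0.38. All arrays numbered 1 shared slide 1, the methods name a removal of chip effects, and deviations within a group of 2 arrays mirror each other. The correlations therefore cannot show or exclude pairing. The remaining lists of the 10 marker lists are counted here in papilloma and then in tumor, each against adjacent skin. Of 14 macrophage or monocyte probes, 1 and 0 were higher and 2 and 2 lower. Of 7 fibroblast probes, 1 and 1 were higher and 0 and 1 lower. Of 8 eosinophil probes, 0 and 2 were higher and 4 and 4 lower. Of 11 T cell probes, 0 and 0 were higher and 2 and 1 lower. Of 13 dendritic cell probes, 1 and 0 were higher and 1 and 1 lower. Of 9 mast cell probes, 1 and 0 were higher and 0 and 0 lower. Of all probes, 4.15% and 5.78% were higher and 2.19% and 3.96% lower.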

Additional observations from a re-analysis of the deposited data

Results flagged for a closer look

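Rel was singled out because all papilloma arrays lay above both papilloma skin arrays and both tumor arrays lay below both tumor skin arrays. The difference between the stages was -0.41 (log2 scale, SE 0.17, unadjusted p = 0.044 and adjusted p = 0.33 by limma), so that the opposite directions were not shown to differ. On the 6 scanner arrays with the full spike-in range, the Rel difference between lesion and skin was 0.070 at the papilloma stage and -1.07 at the tumor stage, the latter between single arrays. With all 9 arrays of the scanner files, quantile-normalized and with slide in the model, the Rel signs turned round, to -1.40 at the papilloma stage, 0.46 at the tumor stage and 1.87 between the stages (adjusted p = 0.43, 1.00 and 0.76). The difference between the stages was positive in all 6 scanner fits, at 1.04 to 1.87.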

How the results depend on the processing

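The counts of 0 called probes for the 10 genes in all contrasts but tumor versus tumor skin stayed at 0 in all 24 alternatives. The 2 probes called in tumor versus tumor skin became 1 with the DEG thresholds of the study, 1 with medians per gene name (Tnip1), 0 with slide as a fixed term, 0 with the replicate number as a block, 0 without the columns papilloma skin 1 and tumor 1, and 0 in each of the 6 fits of the scanner files. Leaving out 1 array gave 0 to 2, with 0 without tumor skin 1, tumor 1 or tumor 2 and 1 without papilloma 1, papilloma 3 or tumor skin 2. The cause was not tested, but these settings called fewer probes in all: of 5421 in this contrast, 212 remained by count with the slide term, 789 with the replicate block, 2340 without the doubted columns, 896 to 5304 on leaving out 1 array, and 0 to 12 in the scanner files. The Tnip1 A_55_P2118674 difference of 1.04 ranged from 0.94 to 1.14 on leaving out 1 array (adjusted p 0.013 to 0.098) and was 0.96 with the slide term and 0.15 to 0.71 in the scanner files. That of Nfkb1 A_55_P1968738, 0.82, ranged from 0.64 to 1.00 (adjusted p 0.034 to 0.13) and turned to -0.18 in the quantile-normalized scanner files with slide as a term, with the slide effect removed before limma and with dim probes left out, -0.030 with the 75th percentile and -0.055 with normexp. The target probes called higher in papilloma, 23, became 14 with the replicate block, 13 without the doubted columns and 0 in 5 scanner fits, against 16 with the slide effect removed before limma. Those in tumor, 26, became 8 with the slide term, 14 with the replicate block and 0 in all 6 scanner fits. Leaving out 1 array gave 15 to 23 in papilloma (15 without papilloma skin 1) and 17 to 29 in tumor (17 without tumor 2). The direction of the target list's median stayed positive in all fits, at 0.60 to 1.79 in papilloma and 0.75 to 1.20 in tumor. Over all probes the medians of these fits ran from -0.38 to 0.41 in papilloma and from -0.074 to 0.051 in tumor. For the 14 probes, the scanner fits kept the sign of 9 to 10 in papilloma versus papilloma skin, 6 to 12 in tumor versus tumor skin, 8 to 10 between tumor and papilloma, 2 to 5 between the skin groups and 3 to 5 for the difference between the stages. A lone array left in a group was assumed to vary like the other groups.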
